A study of Mus musculus with 9 samples.

Results

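H3K27ac marks nucleosomes at active enhancers and promoters, and an island is a stretch of the genome where a peak caller found the mark above the input control. The 788 regions described here are islands that were much wider in CD8+ T cells without Tcf1 and Lef1 than in WT cells. Islands of both genotypes that shared at least 1 bp were merged, which gave 76633 regions. Of these, 30243 lay on chr1-19 and held exactly 1 WT and 1 dKO island, and in 788 of them (2.61%) the dKO island was at least 3 times as wide as the WT island. The opposite change, a WT island at least 3 times as wide as the dKO island, was found in 902 regions, which are called narrowed below. The members were thus chosen by the measured island widths. Widths, counts and counts per kb of the members are therefore descriptions without a test.

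Naive CD8+ T cells (GFP+, TCRbeta+, CD62L-high, CD44-low to medium) were sorted from spleens of mice 6 to 12 weeks old. All mice carried an hCD2-Cre transgene, which acts mainly in peripheral T cells, and a Rosa26 GFP reporter that marks cells in which Cre has acted. WT mice had intact Tcf7 and Lef1 genes (4 H3K27ac samples), and dKO mice were homozygous for floxed Tcf7 and Lef1 (3 samples). The authors pooled the replicates of a genotype before calling islands, so each region has 1 WT and 1 dKO value, no replicate spread and no p-value can be given, and intervals cover counting error only.

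Tcf1, encoded by Tcf7, and Lef1 are HMG-box transcription factors that bind the same DNA letters and help to establish and keep T cell identity. In CD8+ T cells they can activate genes of the naive state and repress genes of effector cells and of other lineages. A wide H3K27ac domain is known to be a feature of strongly used enhancer clusters, whereas narrow islands often mark single elements.

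The sequences below, from the mm9 genome and its plus strand, belong to members on which later paragraphs turn. The first 4 are accessible chromatin sites of the study's lists that lay in members, 3 of cluster C1 (chr4:119789042-119789164 in an intron of Hivep3, chr15:34318828-34319043 in Matn2 and chr5:39256131-39256327 in an intron of Clnk) and 1 of cluster C2 (chr10:44202922-44203194 upstream of the protein-coding start sites of Prdm1 and within an intron of a longer noncoding transcript). In the study, C1 sites were more open and C2 sites less open in dKO cells, and both were linked to genes that were higher there. All 4 sites lay inside the WT island and not in the stretch added in dKO. The next is the stretch just before the first Chn2 start site (chr6:53989348-53989547), the promoter of an upregulated gene inside its WT island. The last is the centre of the WT island of the Wwox intron (chr8:117861801-117862000), one of the 5 members with the largest added width. Capitals mark letters found on either strand: CTTTGT, a form that Tcf1 and Lef1 bind, then TGTGGTT for RUNX factors, then CNGGAAG for ETS factors, then GGTGTGA for T-box factors and TGANTCA for AP-1. The CTTTGT form was searched after the Prdm1 site had been seen.
Hivep3 C1 site: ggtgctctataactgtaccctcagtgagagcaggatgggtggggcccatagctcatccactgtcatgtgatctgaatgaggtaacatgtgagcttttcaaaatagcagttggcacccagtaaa
Matn2 C1 site: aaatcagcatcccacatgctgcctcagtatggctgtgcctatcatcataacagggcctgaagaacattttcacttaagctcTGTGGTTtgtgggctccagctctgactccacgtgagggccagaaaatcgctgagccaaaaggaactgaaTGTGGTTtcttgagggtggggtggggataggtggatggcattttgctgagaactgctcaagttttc
Clnk C1 site: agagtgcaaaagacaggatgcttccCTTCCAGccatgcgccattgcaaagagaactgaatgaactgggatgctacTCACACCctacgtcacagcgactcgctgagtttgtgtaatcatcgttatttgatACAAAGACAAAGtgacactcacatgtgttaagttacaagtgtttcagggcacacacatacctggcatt
Prdm1 C2 site: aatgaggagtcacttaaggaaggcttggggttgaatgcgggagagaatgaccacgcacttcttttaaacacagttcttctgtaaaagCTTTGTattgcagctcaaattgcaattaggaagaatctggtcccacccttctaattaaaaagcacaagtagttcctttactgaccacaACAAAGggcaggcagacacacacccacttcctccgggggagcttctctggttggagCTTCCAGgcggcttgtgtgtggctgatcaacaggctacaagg
Chn2 promoter: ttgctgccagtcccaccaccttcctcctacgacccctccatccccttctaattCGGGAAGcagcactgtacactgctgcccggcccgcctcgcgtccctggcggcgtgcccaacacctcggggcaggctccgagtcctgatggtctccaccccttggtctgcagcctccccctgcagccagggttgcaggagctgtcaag
Wwox intron, WT island centre: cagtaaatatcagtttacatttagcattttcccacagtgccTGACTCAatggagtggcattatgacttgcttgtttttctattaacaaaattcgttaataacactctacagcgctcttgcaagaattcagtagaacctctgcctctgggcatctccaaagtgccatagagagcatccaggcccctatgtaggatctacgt
The Tcf/Lef letters searched first, CTTTGA, had no match in any of the sequences shown. The Prdm1 and Clnk sites each held 2 matches of CTTTGT, and in the Clnk site they stood directly side by side. The Matn2 site held 2 RUNX matches, and the Hivep3 site held none of the letters searched.

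The labels were checked first. Levels are given here as CPM per kb, that is counts per kb of island scaled to the total counts of all islands in the list, which were 82668007 in WT and 57665047 in dKO (a ratio of 1.43). Tcf7 carried 1 island in WT (70 kb, 8.66 CPM per kb) and 2 in dKO (41.8 kb, 8.62 CPM per kb), and Lef1 carried 2 in WT (5.71 CPM per kb) and 5 in dKO (4.43 CPM per kb). Neither gene held a member, and islands do not report on exon deletion. Islands lay on 8 of 8 T cell markers in both lists, at 3.32 to 5.57 CPM per kb in WT and 4.47 to 10.5 in dKO. Islands also lay on markers of other cells, 2 of 2 CD4 T cell genes in both, 5 of 6 B cell genes in WT (Pax5 had none) and 6 of 6 in dKO, 3 of 4 NK cell genes in both (Ncr1 had none), 6 of 6 myeloid genes in both and 2 of 3 erythroid genes in both (Epor had none). The highest level was 5.68 CPM per kb in WT and 3.57 in dKO for NK cell genes, 3.69 and 3.67 for B cell genes, and 3.69 and 4.41 for myeloid genes. It was 3.53 and 2.73 for erythroid genes and 2.28 and 2.22 for CD4 T cell genes. The part of other cells in the results was not tested, and fewer cells of a type and less mark per cell cannot be told apart in such pools. Below, counts and counts per kb are printed as deposited and are not comparable between genotypes by themselves. The log2 ratios are taken after scaling.

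In WT cells the members were narrow islands. The median WT island was 1.4 kb wide (interquartile range 1000 to 2000 bp) and held 205 counts, whereas the median dKO island was 5.8 kb wide (4200 to 8450 bp) and held 518 counts. The dKO island added a median of 4.2 kb, with a range from 1 kb to 82 kb. Most members lay close to the limit: the width ratio was from 3 to below 4 in 439, from 4 to below 5 in 194, from 5 to below 10 in 136 and at least 10 in 19. It was exactly 3 in 105 members, and 123 regions from 2.8 to below 3 fell just outside. Among the regions near the limit, the members with the most counts at a ratio of 3 were Prdm4 (from 2 kb to 6 kb) and Sec14l1 (from 3 kb to 9 kb). Pnpla1 (from 4.8 kb to 14.2 kb, ratio 2.96) lay just below it.

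**Figure D1:**
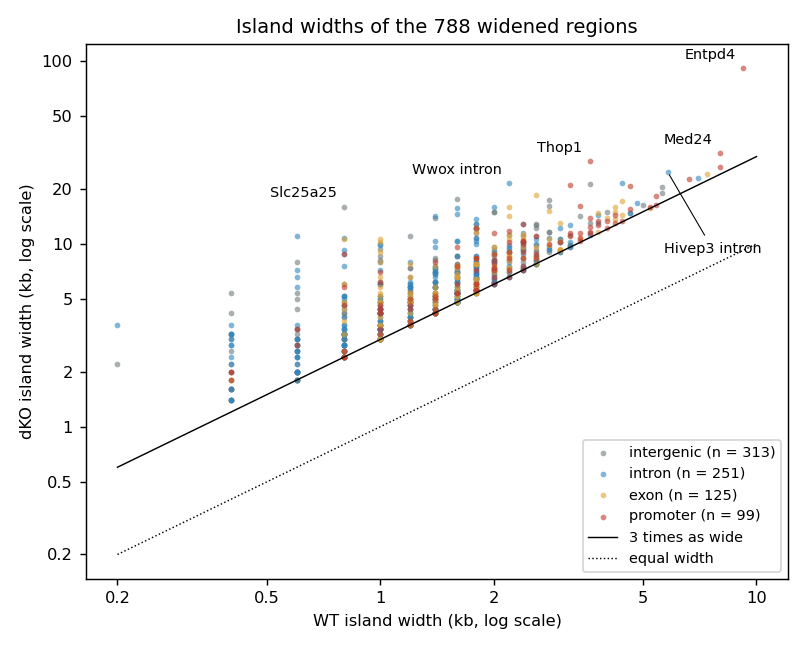
WT island width (x axis, kb, log scale) against dKO island width (y axis, kb, log scale) for the 788 members, with each point 1 region coloured by the position of its WT island. The solid line marks the ratio of 3 that chose the members and the dotted line equal width. Most WT islands lie between 1 and 2 kb, and the Entpd4 region stands alone at 91.2 kb in dKO.

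How often an island was widened fell steeply with its width in WT. Among regions with a WT island of 200 to 1000 bp, 253 of 1260 (20.1%, 95% Wilson interval 18.0 to 22.4%) were members. The share was 6.24% for 1200 to 2000 bp, 1.71% for 2200 to 3000 bp, 0.586% for 3200 to 5000 bp and 0.160% for wider islands (13 of 8117). Since islands come in steps of 200 bp and a ratio of 3 asks for fewer added bases at a narrow island, this gradient is in part set by the rule. For that reason several shares below are also given within the 6984 regions whose WT island was at most 2000 bp wide, of which 610 were members.

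**Figure D2:**
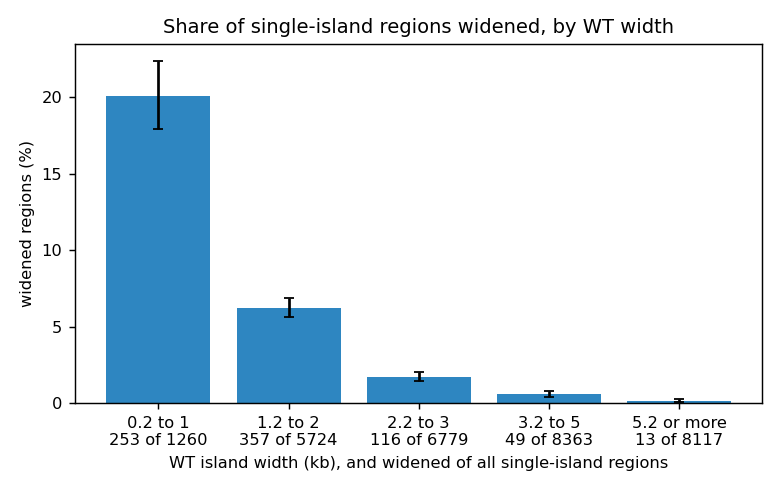
Percent of single-island regions that were members (y axis) by the width class of the WT island (x axis, kb), with 95% Wilson intervals as error bars and the counts under each bar. The share falls from 20.1% in the narrowest class to 0.160% in the widest.

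The added stretch was usually lopsided. The dKO island ran past the WT island on both sides in 492 of 788 members (62.4%, 59.0 to 65.7%), and by at least 1000 bp on both sides in 290 (36.8%). The longer side added a median of 3600 bp and the shorter side 400 bp, and in 393 members (49.9%) the longer side held at least 90% of the added width. Left and right along the chromosome were close to even, with the longer side on the right in 390 members and on the left in 385. In 90 members the WT island also reached past one border of the dKO island. Widened islands stood further from other WT islands (median gap 5.4 kb, against 2 kb for all single-island regions) and near other dKO islands (median gap 1 kb, against 1.6 kb). The rule favours this, since no other WT island may lie under the wide dKO island. Narrowed regions showed the mirror image, with median gaps of 1600 bp to WT and 4400 bp to dKO islands.

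**Figure D3:**
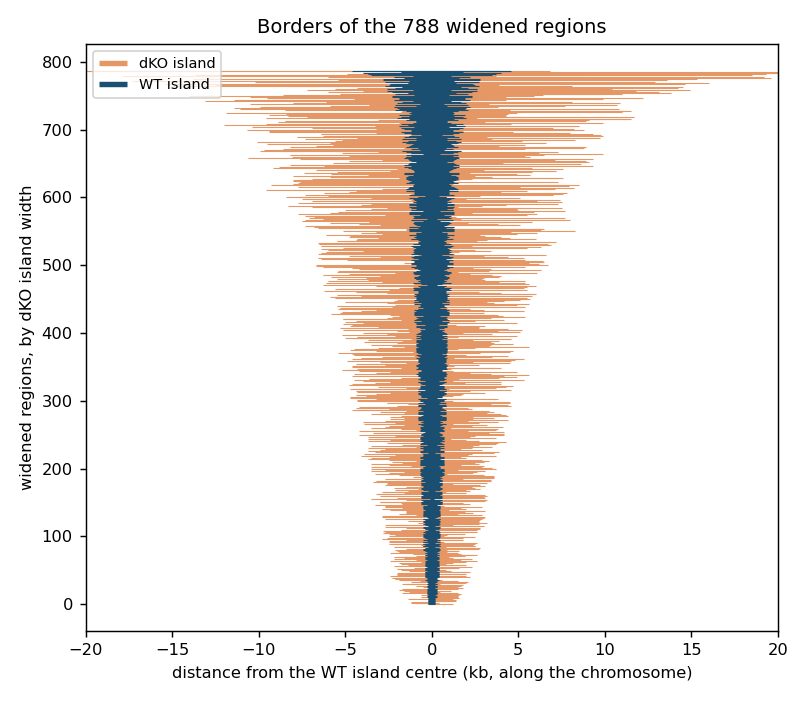
Extent of the WT island (dark) and the dKO island (light) of each member along the x axis (kb from the centre of the WT island, along the chromosome), with members ordered from bottom to top by dKO width on the y axis. The light stretches reach out on one side more than on the other in many rows; 5 dKO islands run past the plotted 20 kb.

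At promoters the sides could be read along the gene. At the 92 members whose WT island lay at start sites of 1 strand only, the longer side pointed downstream, into the gene, in 52 (56.5%, 46.3 to 66.2%) and upstream in 38. The median added width there was 3200 bp downstream and 1700 bp upstream. Over all single-island promoters the longer change pointed downstream in 44.9%, upstream in 43.0% and was equal in 12.1%, and the median shift was 0 on either side. The interval of the members' share includes 50%, so a preference for the gene body was not detectable at this number of promoters.

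Widening came with more counts but not with more counts per kb. Counts scaled to the list totals were at least 1.5 times higher in dKO in 764 of 788 members, beside 13.2% of all single-island regions. The rule made this count nearly certain, since wider islands collect more reads. Per kb of island, WT members had a median of 149.2 counts (129.2 to 177.6) and dKO members 89.4 (83.2 to 98.0). After scaling, the median log2 dKO to WT ratio of counts per kb was -0.23, against -0.02 for all single-island regions and 0.33 for narrowed regions. Counts per kb were lower in dKO in 615 members (78.0%), beside 53.2% of all single-island regions. They were at least 1.5 times lower in 129 (16.4%), beside 5.55% of all single-island regions, and at least 1.5 times higher in 2, beside 1.52%. Among regions with a WT island of at most 2000 bp, 16.7% of the members and 6.74% of all regions were at least 1.5 times lower. The measure is a mean over the whole island, so a tall narrow island that gains low flanks falls in counts per kb by its construction. The files hold 1 count per island, and the level within the original WT borders was not analysed here.

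The members sat low in the dKO list. Their median counts per kb lay at percentile 32 of all dKO islands, whereas in WT it lay at percentile 56.9 of all WT islands. In each list 99% of islands exceeded a nearly identical scaled level, 1.196 CPM per kb in WT and 1.194 in dKO. The members' median was 1.81 CPM per kb in WT and 1.55 in dKO, and the lowest member stood at 1.25 and 1.17. Few members held many 50-base stretches that recur elsewhere in the genome. A median of 98.3% of the 50-base stretches of a member occurred once in the mm9 chromosomes, 98.2% in the added part, and 2 members fell below 50%.

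**Figure D4:**
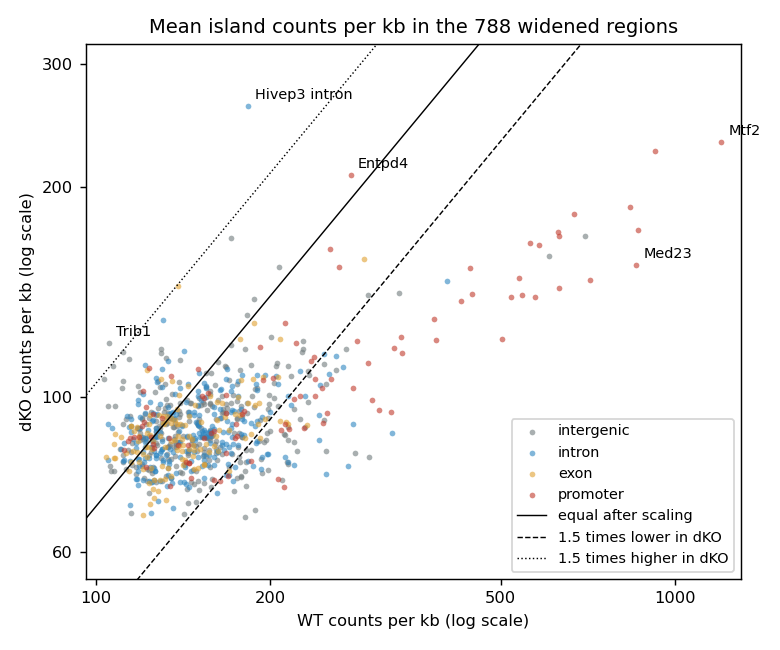
Mean counts per kb of the WT island (x axis, log scale) against the dKO island (y axis, log scale) for the 788 members, coloured by position. Lines mark equal level after scaling to the list totals and 1.5 times lower or higher. Most points lie between equal and 1.5 times lower, a tail of promoters lies far to the right, and the Hivep3 intron lies above the upper line.

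Most members lay away from start sites. The WT island was within 1 kb of the start site of a protein-coding gene, here called a promoter, in 99 members (12.6%, 10.4 to 15.1%), against 24.9% of all single-island regions and 13.0% of narrowed regions. It lay in an exon in 125 (15.9%), in an intron in 251 (31.9%) and between genes in 313 (39.7%). Promoters are wide islands in general, and at a WT width of at most 2000 bp the promoter share was 8.52% (6.56 to 11.0%) in members and 11.7% (10.9 to 12.4%) in all regions, a smaller gap. Promoter members had the lowest ratios per kb, with a median of 2.56 CPM per kb in WT and 1.74 in dKO (median log2 ratio -0.54), and 48 of 99 were at least 1.5 times lower, beside 16.1% of all single-island promoters. The count was 29 of 251 in introns (11.6%, beside 1.56% of all regions with the WT island in an intron), 46 of 313 between genes (14.7%, beside 2.49%) and 6 of 125 in exons (beside 1.77%).

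The 5 lowest members per kb were all tall, narrow promoter islands. The Med23 promoter, of a subunit of the Mediator complex that links transcription factors to RNA polymerase II, had a WT island of 1.2 kb with 1027 counts and a dKO island of 4.4 kb with 679, a log2 ratio per kb of -1.95 (95% counting interval -2.09 to -1.81). The Mtf2 promoter, of an accessory protein of the Polycomb complex PRC2, held 1199 counts per kb in WT and 231.8 in dKO over an island that went from 1.4 kb to 5 kb (-1.85). Thg1l, which encodes a tRNA-modifying enzyme, stood at -1.80, Wdr62 and its neighbour Thap8 at -1.75 and Prdm4 at -1.64. Their scaled counts changed much less than their widths, with log2 dKO to WT ratios of counts from -0.21 to 0.28.

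The highest member per kb was an intron of Hivep3, which encodes a large zinc finger protein and was on the study's list of upregulated genes. At chr4:119785401-119810200 the WT island held 1060 counts over 5.8 kb (182.8 per kb) and the dKO island 6471 counts over 24.8 kb (260.9 per kb). The log2 ratio per kb was 1.03 (0.94 to 1.13), and all 19 kb of the added stretch lay to the right, towards the end of the gene and Edn2. A further dKO island of 45.8 kb and 5463 counts began 600 bp beyond it on that side, where the WT list had no island within 5 kb. The C1 site shown above lies in the WT island. A second Hivep3 intron at chr4:119456401-119467000 widened from 3 kb to 10.6 kb (121.7 and 111.3 counts per kb, log2 ratio 0.39).

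The other members with the highest ratios were Trib1 at 0.70, 2 regions near Ndufs4 at 0.58 and 0.57, and Mfn2 at 0.58. The Mfn2 region is an exon of the mitofusin gene, whose product joins mitochondria, and it went from 305 counts over 2.2 kb to 1242 over 8.6 kb. Hivep3 and Trib1 were the 2 members past a ratio of 1.5. The other members with positive ratios stayed below it.

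The largest region by far was at Entpd4 and Slc25a37 (chr14:69870401-69961600). Entpd4 encodes a nucleotide hydrolase of the Golgi, and Slc25a37 encodes mitoferrin, the iron carrier of mitochondria. The WT island covered 9.2 kb at the Entpd4 promoter with 2534 counts, and the dKO island covered 91.2 kb with 18975 counts, or 208.1 per kb. The stretch of 79.8 kb added on the left held the start site of Slc25a37, at which the WT list had no island. Counts per kb differed little (log2 ratio 0.11, 0.06 to 0.17). Another dKO island of 34.2 kb followed 600 bp to the right. Whether islands are missing from the WT list there was not tested, since tracks of the replicates and the inputs were not analysed here.

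Thop1, which encodes a peptidase, and Med24, a further Mediator subunit, were the next largest. The Thop1 region (chr10:80531601-80560200) went from 857 counts over 3.6 kb to 3240 over 28.4 kb, all of it added downstream, and reached the start site of Creb3l3 (log2 ratio per kb -0.54). The Med24 region (chr11:98550601-98582000) went from 1250 counts over 8 kb to 3186 over 31.4 kb and reached Psmd3 and Csf3, the gene of the granulocyte growth factor G-CSF (-0.10). The Wwox intron whose centre is shown above (chr8:117844001-117865600) went from 293 counts over 2.2 kb to 2437 over 21.6 kb (0.28, 0.11 to 0.46). The nearest start site to it was that of Maf, a transcription factor of T helper and effector cells, 367996 bp away.

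In 54 members (6.85%, 5.29 to 8.83%) the dKO island covered a start site of a protein-coding gene that the WT island did not. These were 59 genes, and the same held for 1.11% of all single-island regions. Start sites of all annotated transcripts of a gene were counted, whatever the transcript type. A covered start site can therefore lie inside the gene, away from its main promoter. The reverse was seen in 0 of 788 members, which is what the rule favours. Slc25a25, which encodes a mitochondrial ATP carrier, showed the change at high ratio, from 134 counts over 0.8 kb to 1567 over 16 kb. Klre1, an NK cell receptor gene, was reached by an island that went from 85 counts over 0.4 kb to 255 over 2 kb. An annotated start site of Vav2, an exchange factor of antigen receptor signalling, was reached by an island that went from 192 counts over 1.6 kb to 872 over 9.6 kb. Whether that site is used in these cells was not tested. In 34 of the 54 members the WT island was no promoter at all.

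Of the members, 182 of 788 (23.1%) had another member within 100 kb. With neighbours joined at up to 150 kb, 23 loci held at least 3 members (77 members in all) and 6 held at least 4. The same shares for narrowed or all single-island regions were not computed, so these counts do not show whether members cluster more than other islands. These loci were picked out after their values were seen. At Chn2, which encodes the Rac-inactivating protein beta-chimaerin, 4 members lay within 52.4 kb (chr6:53963401-54015800), 2 before the gene, 1 at its promoter and 1 in an intron. Together they went from 5.8 kb and 1046 counts in WT to 35 kb and 4331 counts in dKO. The promoter member held 253.3 counts per kb in WT and 162.8 in dKO (log2 ratio -0.12, -0.27 to 0.03), an interval that included 0. The intron member had a WT island of only 0.6 kb with 146 counts and a dKO island of 11 kb with 1145.

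Trib1 encodes a pseudokinase that steers the breakdown of C/EBP factors and is known for roles in myeloid cells and T cells. It was the nearest gene to 5 members over 227.2 kb (chr15:59389001-59616200), which went from 10.4 kb and 1251 counts to 37.8 kb and 4077 counts, with log2 ratios per kb from -0.40 to 0.70. Of these, 4 were higher per kb in dKO, and all 4 lay downstream of the gene. The remaining one lay in an intron of Nsmce2 on the other side. A further 5 members lay over 187.2 kb from an intron of Arl15 to an intron of Ndufs4, a subunit gene of respiratory complex I (chr13:114901601-115088800). They went from 1889 to 6211 counts and all 5 were higher per kb, from 0.02 to 0.58. At the NK receptor genes Klre1, Klrd1 and Klrc1, 3 members had WT islands of 0.4, 0.8 and 1 kb and dKO islands of 2, 3 and 3.6 kb. Upstream of Runx1, a transcription factor of T cell development, 3 members lay 209290 to 288690 bp from the gene's nearest start site, and the farthest went from 294 counts over 2.8 kb to 1692 over 17.4 kb (log2 ratio per kb 0.41).

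Genes on the study's lists of altered transcripts, measured by RNA-seq in other libraries, give a readout that the rule did not use. A region was linked to a gene where it lay from the gene body to 50 kb upstream. Members were linked to upregulated genes in 43 of 788 cases (5.46%, 4.08 to 7.27%), against 3.07% of all single-island regions and 1.44% of narrowed regions. They were linked to downregulated genes in 14 (1.78%, 1.06 to 2.96%), against 2.37% and 3.10%. Neighbouring members can share a gene (the 43 lay at 38 upregulated genes). The regions are thus not independent, and these intervals may be too narrow. At a WT width of at most 2000 bp the upregulated share was 5.08% in members (3.60 to 7.12%) and 2.91% in all regions. Wide islands reach more genes, but with the link drawn from the WT island alone 41 of 788 members were linked, against 3.06% of all regions. Seen from the genes, 38 of 242 upregulated genes with a single-island region had a member (15.7%), as did 12 of 211 downregulated genes (5.69%) and 1123 of 14266 protein-coding genes (7.87%). For narrowed regions the order was the reverse, at 5.37%, 12.3% and 6.62%. These gene shares used the link by the dKO island, which is the wide one in members and the narrow one in narrowed regions. The gene lists were not matched for the number of single-island regions per gene.

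**Figure D5:**
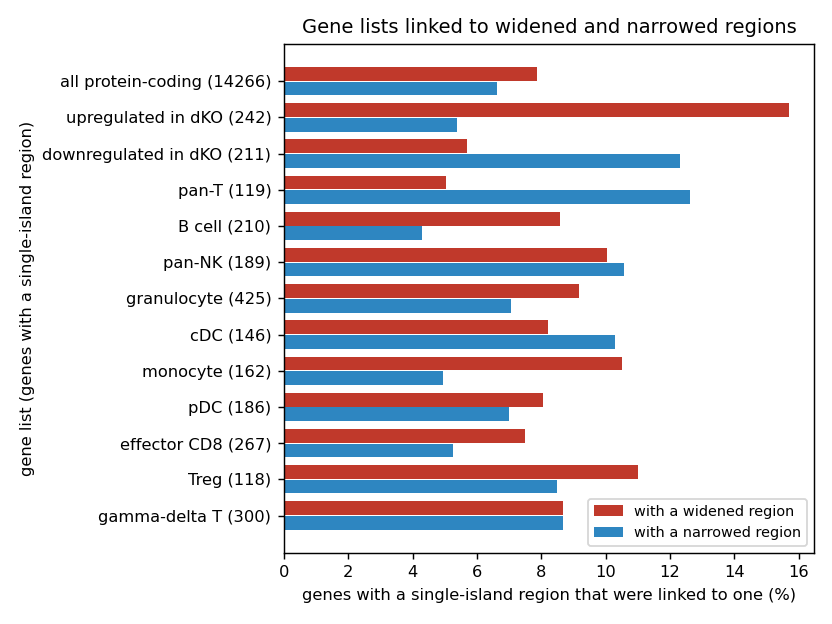
Percent of the genes of each list that were linked to a member (upper bar) or to a narrowed region (lower bar), out of the genes with a single-island region (number in brackets, y axis). Links were drawn from the dKO island. The upregulated list has the longest upper bar (15.7%), while the downregulated and pan-T lists have long lower bars (12.3% and 12.6%).

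The median log2 ratio per kb was -0.08 over the members linked to upregulated genes and -0.32 over those linked to downregulated genes. Links to upregulated genes rested on distal islands: in 3 members the dKO island came within 1 kb of such a gene's start site (Chn2, Itsn1 and 1700020L24Rik), 0.381% of members and 0.479% of all regions. No member came within 1 kb of a downregulated start site, where a count of 0 allows a share of up to 0.381% (upper 95% Wilson bound 0.485%), and 0.387% of all regions did. Both counts lay near the background. Itsn1, which encodes a scaffold of endocytosis, had start sites 2471 to 3127 bp to the right of its WT island that only the dKO island covered (212 counts over 1.8 kb and 544 over 6 kb). At 1700020L24Rik the island went from 3.2 kb to 21 kb, and counts per kb from 277.8 to 103.1. Other wide members at upregulated genes were an intron of Rap1gap2, a GTPase-activating gene (4.4 kb and 21.4 kb), an intron of the death-associated kinase gene Dapk1 (1.8 kb and 12.2 kb) and a region near Rasgef1b (2.4 kb and 11.4 kb).

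The functional lists are short, and their counts are to be set beside the 7.87% of all protein-coding genes with a member. Among the 13 listed effector and cytotoxic genes with a single-island region, 2 were linked to a member. Prdm1 encodes Blimp1, a repressor that promotes effector differentiation. Its member, 24047 bp upstream of the nearest protein-coding start site, went from 176 counts over 1.4 kb to 551 over 5.8 kb (125.7 and 95 counts per kb, log2 ratio 0.12, -0.13 to 0.36). This is the region of the C2 site shown above, with 2 matches of CTTTGT and none of CTTTGA. The study described H3K27ac at that site as background in WT and dKO cells alike. From mice with the site mutated, it proposed that the site represses Prdm1. Both lists held an island over the site, with counts per kb below the medians of all islands (141.9 in WT and 98.3 in dKO). These are means over whole islands. The level at the site itself was not measured here, so the values cannot be set against that description. Gzmb encodes the protease granzyme B of cytotoxic granules. A member 13304 bp upstream of its start site went from 162 counts over 0.6 kb to 281 over 2.4 kb (log2 ratio per kb -0.69, -0.96 to -0.41), between islands that both lists held. Of the 50-base stretches of this member 84.25% occurred once in the mm9 chromosomes, against a median of 98.3% over members. Among the naive and stemness factors 2 of 12 had a member, the zinc finger gene Bcl11b, which keeps T cell identity (2.4 kb and 7.4 kb), and the quiescence factor Foxp1 (1 kb and 3.2 kb). Of 14 B cell and myeloid regulators only Blk, a kinase of B cells, was linked, through the Fam167a promoter beside it (3.6 kb and 13.8 kb). None of 11 chemokine and chemokine receptor genes, 13 inhibitory and costimulatory receptor genes, 13 cytokine and cytokine receptor genes and 17 genes of T cell receptor signalling with a single-island region was linked to a member. Lists of 11 to 17 genes are too short to tell such counts from that share.

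Genes enriched in single immune lineages, from the study's lists, were linked to members at shares from 5.04% to 11.0%, around that of all protein-coding genes (7.87%). The share was 5.04% for pan-T genes (6 of 119), 8.57% for B cell genes, 10.1% for pan-NK genes, 9.18% for granulocyte genes, 8.22% for cDC genes, 10.5% for monocyte genes and 8.06% for pDC genes. It was 7.49% for effector CD8, 11.0% for Treg and 8.67% for gamma-delta T cell genes. The short lists of naive CD8 and naive CD4 genes had 3 of 33 and 2 of 22 genes. The NK genes include the Klre1, Klrd1 and Klrc1 cluster, so several genes there share 3 regions.

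The study's lists of super enhancers, accessible sites and hubs used here hold only those linked to genes with altered transcripts. The super enhancers were drawn from these same libraries and are not independent of the widths. In the 88 listed dKO-prepotent super enhancers, those with stronger signal in dKO, lay 54 members (6.85%), against 2.90% of all single-island regions. The 49 listed WT-prepotent super enhancers held 14 members (1.78%, against 1.55%). Accessible sites were measured by DNase-seq in other libraries. Sites of C1 and C3 were more open in dKO cells, and sites of C2 and C4 less open. C1 and C2 were linked to genes higher in dKO, and C3 and C4 to genes lower there. A listed C1 site lay in 3 members (0.381%, 0.130 to 1.11%, against 0.122% of all regions) and a C2 site in 1 (0.127%, against 0.0794%). Sites of C3 and C4 lay in 0 members, beside 0.00992% and 0.0794% of all regions, so that no difference was detectable at this number. The Matn2 member with its C1 site, in the gene of a matrix protein, went from 496 counts over 2.8 kb to 1842 over 15.2 kb (log2 ratio per kb -0.03). The Clnk member, in the gene of an adaptor of immune receptors, went from 156 counts over 1.2 kb to 636 over 5.8 kb (0.27, 0.02 to 0.53). The listed WT-specific hubs of chromatin contacts held 2 members (0.254%, against 0.714% of all regions), and dKO-specific hubs held 2 (against 0.476%), which are too few to read.

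Sequence letters were counted on both strands in 400 bp windows at the centre of the WT island and at the centre of the longer added side. The Tcf/Lef letters CTTTGA occurred in 25.1% of the WT windows of members (22.2 to 28.3%), in 23.7% of the added windows (20.9 to 26.8%) and in 25.6% of the WT windows of all single-island regions. The form CTTTGT occurred in 28.9%, 27.7% and 30.9%. Both were thus near the level of all regions. The ETS letters CNGGAAG occurred in 37.3% of the members' WT windows (34.0 to 40.7%), in 30.6% of their added windows and in 30.6% of all WT windows. These shares were not matched for WT width, whose median was 1400 bp in members and 3400 bp in all single-island regions. The Klf and Sp letters GGGCGGG, common in promoters rich in CpG, occurred in 5.71% of WT windows, 2.54% of added windows (1.65 to 3.89%) and 6.46% of all. The letters CAGGTG of E proteins and Zeb factors occurred in 30.3%, 28.4% and 27.1%. RUNX, AP-1, T-box, IRF (GAAANNGAA) and STAT (TTCNNNGAA) letters each lay within 3 percentage points of all regions in both windows. Median GC content was 47.5% at the WT centre, 46.2% in the added windows and 45.8% over all regions.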

How the data were processed

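H3K27ac ChIP-seq was made from 4 WT and 3 dKO samples of naive CD8+ T cells, with 1 input sample per genotype (9 samples). The authors aligned reads to mm9 with Bowtie2 (2.2.5), used those mapped once at a quality over 10, pooled replicates and called islands with SICER (1.1) at an FDR below 0.01, using windows of 200 bp and gaps of up to 400 bp. The deposited lists (65563 WT and 82213 dKO islands) give each island's read count, not scaled for depth or width, and a border shift alone changes it. Depth outside islands is unknown. Input samples were not analysed here.

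Islands sharing at least 1 bp were merged with Python (3.11.15, pandas and numpy). Starts are given counted from 1. Counts per kb were counts divided by island width. Ratios of dKO to WT used counts divided by the island total of the list, with 95% Poisson intervals for the 2 counts. Shares have 95% Wilson intervals. The reads carry no molecular identifiers, so intervals cover counting error only. A ratio of at least 1.5 was called changed. Gene positions came from GENCODE vM1 (mm9). A promoter was 1 kb either side of the start site of any annotated transcript of a protein-coding gene. Gene, site and super enhancer lists of the study were used as names and positions only. Of the upregulated names 96.8% and of the downregulated names 97.3% were found. The merging of islands, the search for Tcf/Lef letters and the call of changed counts per kb were tried on simulated data. The other steps were not simulated.

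The members and lists were chosen with earlier results of these data known. Named were the 5 members with the largest added width, the 5 highest and 5 lowest per kb with at least 200 counts, members with listed accessible sites, members within 1 kb of altered genes, members at genes of 7 functional lists, and the regions at the limit, of which 1 is not reported here. Loci with several members, regions whose start site only the dKO island reached, and further members at upregulated genes were chosen after their values were seen. The alternatives changed the width ratio, the island filters, the merging, the scaling, the gene link and the motif window.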

Additional observations from a re-analysis of the deposited data

How the results depend on the processing

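The pooled lists allow no spread between samples, and every value is a description. No paired analysis was possible because the replicates of a genotype were pooled before islands were called, and leaving out a replicate was not possible for the same reason. A width ratio of at least 2 gave 2448 regions, with a median log2 ratio per kb of -0.17, 16.7% at promoters and 53.2% extended on both sides. A ratio of at least 4 gave 349 regions with a median of -0.29. With WT islands of at least 1000 bp the median was -0.16. Scaling by the counts in regions of both lists gave -0.16 and by the median ratio over single-island regions -0.15, since these scalings moved all regions by 0.07 and 0.08. With start sites within 2500 bp of the WT island, 17.1% were promoters, and with start sites within 1 kb of the dKO island 18.1%. At least 1000 bp on each side was added in 36.8%. Links by start sites within 1 kb of the dKO island left 0.381% at upregulated and 0% at downregulated genes. Tcf/Lef letters occurred in 13.2% of 200 bp windows (all regions 13.3%) and in 51.1% of 1000 bp windows (52.4%), and the form CTTTGT, chosen after seeing the data like the link by the WT island, in 28.9%. In the 6 alternatives that recomputed it the median per kb kept its negative sign. That sign is no independent support, since every alternative still chose regions by a wider dKO island. The scalings only shifted all regions by a constant. A filter of 200 counts removed no member, joining islands within 1000 bp gave 1032 members, and adding chrX gave 791.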
